A study of Mus musculus with 10 samples.

Results

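The glycolysis and hypoxia response genes described here are 33 named genes of glucose breakdown, glucose and lactate transport, and the response to low oxygen, followed in melanoma tumours of mice. A gene was counted as measured where a probe set of the array table carried its symbol and no other; 30 of the 33 were, among 19938 genes measured in all. Gpi1 (glucose-6-phosphate isomerase) and Eno1 (enolase 1) had no such probe set and were not analysed here. Gapdh (glyceraldehyde-3-phosphate dehydrogenase) was named only on probe sets that also name other genes. The Exercise group held male mice, with tumour arrays numbered 300, 301, 306, 309 and 310. It was set against male mice of the non-Exercise group, with tumour arrays 326, 327, 329, 330 and 331, so that each group had 5 arrays of whole melanoma tissue. The series title names voluntary exercise, and no strain, age, tumour line or length of exercise is given there or in the labels. Nothing states that each number is a separate animal, so a p-value here measures the spread between these arrays, which may be partly technical.

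Glycolysis splits glucose into pyruvate in the cytosol, and lactate dehydrogenase turns pyruvate into lactate, which leaves the cell through monocarboxylate transporters. When oxygen is scarce the prolyl hydroxylases that mark the alpha subunits of hypoxia-inducible factor (HIF) for destruction slow down, HIF builds up, and it binds short DNA elements near many genes of glycolysis, glucose uptake and acid handling. Solid tumours often contain poorly perfused regions, and melanomas are known for a high rate of glycolysis and for an active HIF pathway.

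The tumours carried their labelled tissue's transcripts. Of 12 melanocytic markers 12 were measured, with a median level at percentile 99.1 of all genes and with 0 past the test between groups. Transcripts of other cells differed: hepatocyte markers summed to between -0.70 and 1.66 (mean deviation of the list from its average, log2) in the Exercise arrays and between -0.72 and -0.36 in the non-Exercise arrays, the high values being those of arrays 306 (1.59), 309 (1.66) and, after them, 310. Macrophage and monocyte markers lay between -0.22 and 1.0 in the Exercise arrays and between -0.81 and -0.24 in the non-Exercise arrays, with 12 of 15 higher past the test. Fibroblast markers lay between -0.23 and 1.06 in the Exercise arrays and between -0.82 and -0.05 in the non-Exercise arrays, with 6 of 8 higher, and 7 of 8 general leukocyte markers were higher. Skeletal muscle (0 of 12), adipocyte (0 of 7) and keratinocyte (0 of 10) markers had none past the test, although the muscle markers ranged from -1.10 to 1.42 in the Exercise arrays and from -0.61 to 0.18 in the non-Exercise arrays. Of 9 endothelial markers 1 was higher and 1 lower, and of 3 measured erythroid markers 2 were lower. In bulk tissue, fewer cells of a type and less RNA per cell cannot be told apart.

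Among the 30 measured genes, 1 was higher and 4 were lower in Exercise tumours by limma at a Benjamini-Hochberg adjusted p under 0.05 over all genes. Pfkfb3, the regulatory enzyme that makes the phosphofructokinase activator fructose 2,6-bisphosphate, was the one that rose. Pfkm (muscle-type phosphofructokinase), Pgk1 (phosphoglycerate kinase 1), Pgam1 (phosphoglycerate mutase 1) and Ldhb (the B subunit of lactate dehydrogenase) fell. Of all genes, 6.35% were called higher and 10.6% lower, against 3.33% and 13.3% of the measured members, so the members' shares lay near the background. The median change of the 30 was -0.06 on the log2 scale, with 10 positive and 20 negative, against -0.02 over all genes. The groups did not overlap for 4 members: 1 had every Exercise value on top (3.74% of all genes did) and 3 had every Exercise value at the bottom (8.33% of all genes did).

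**Figure D1:**
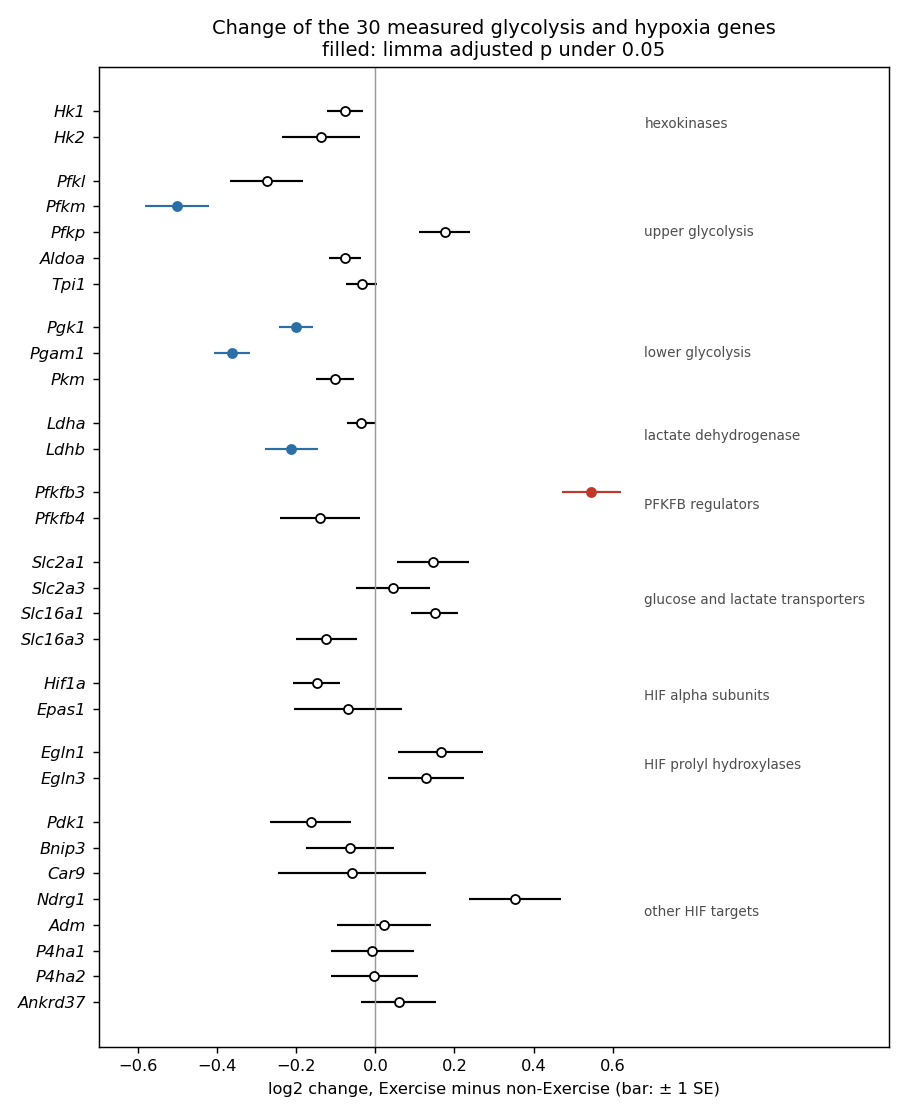
Change of each of the 30 measured genes (y axis, grouped by role) on the log2 scale, Exercise minus non-Exercise (x axis), with points for the estimates, bars for 1 SE, and filled points for a limma adjusted p under 0.05. Pfkfb3 is the only filled point above 0, at 0.55, and the 4 filled points below 0 are glycolytic enzymes and Ldhb, while all 8 members grouped as other HIF targets are open.

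Motifs bound by HIF were looked up in the promoters of these genes, since HIF binding is what links most of them. Promoter windows of RefSeq (GRCm38.p6) were available for 27 of the 30, and the 250 bases before each transcription start were searched on both strands for ACGTG and GCGTG, the core letters of the HIF element. The palindrome CACGTG, an E-box bound by MYC, MITF and USF factors, holds ACGTG on both strands and was counted with it. The windows below are those of Car9 and the 3 genes whose levels ran closest to it over the arrays in Pearson's r, followed by the called members Pgk1, Pgam1, Pfkfb3 and Ldhb; Pfkm, the remaining called member, has 4 listed starts and is not printed. Each window is 5′ to 3′ on the gene's strand, and capitals mark the matches.
Car9, chr4:43506776-43507025, plus strand: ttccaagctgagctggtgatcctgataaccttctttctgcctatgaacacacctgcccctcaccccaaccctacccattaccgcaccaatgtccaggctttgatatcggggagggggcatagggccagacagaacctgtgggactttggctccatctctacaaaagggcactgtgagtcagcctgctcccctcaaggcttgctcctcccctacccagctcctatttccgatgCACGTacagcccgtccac
Bnip3, chr7:138909507-138909756, minus strand: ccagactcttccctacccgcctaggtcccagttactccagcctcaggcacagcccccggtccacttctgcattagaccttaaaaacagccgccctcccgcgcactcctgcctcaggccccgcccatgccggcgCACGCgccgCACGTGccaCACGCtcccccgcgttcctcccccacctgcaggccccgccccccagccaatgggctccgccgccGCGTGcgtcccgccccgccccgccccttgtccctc
Hk2, chr6:82774455-82774704, minus strand: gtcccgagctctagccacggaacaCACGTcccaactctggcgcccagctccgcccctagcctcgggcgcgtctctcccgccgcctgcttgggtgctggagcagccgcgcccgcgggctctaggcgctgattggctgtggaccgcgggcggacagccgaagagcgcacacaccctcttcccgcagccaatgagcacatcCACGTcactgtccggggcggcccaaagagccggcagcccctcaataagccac
Slc16a3, chr11:120948817-120949066, plus strand: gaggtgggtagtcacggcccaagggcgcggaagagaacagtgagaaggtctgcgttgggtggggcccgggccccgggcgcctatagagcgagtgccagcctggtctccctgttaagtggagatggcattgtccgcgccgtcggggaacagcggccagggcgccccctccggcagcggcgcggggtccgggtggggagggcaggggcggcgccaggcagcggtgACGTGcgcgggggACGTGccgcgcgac
Pgk1, chrX:106186850-106187099, plus strand: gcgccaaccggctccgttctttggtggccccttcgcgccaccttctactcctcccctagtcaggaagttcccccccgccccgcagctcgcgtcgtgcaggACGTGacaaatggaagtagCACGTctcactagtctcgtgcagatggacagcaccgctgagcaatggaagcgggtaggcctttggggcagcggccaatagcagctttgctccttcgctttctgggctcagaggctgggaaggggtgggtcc
Pgam1, chr19:41911621-41911870, plus strand: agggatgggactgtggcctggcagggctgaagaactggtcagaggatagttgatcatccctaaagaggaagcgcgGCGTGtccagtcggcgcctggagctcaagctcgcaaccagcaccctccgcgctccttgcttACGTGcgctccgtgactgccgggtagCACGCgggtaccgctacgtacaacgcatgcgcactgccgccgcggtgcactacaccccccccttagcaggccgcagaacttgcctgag
Pfkfb3, chr2:11553930-11554179, minus strand: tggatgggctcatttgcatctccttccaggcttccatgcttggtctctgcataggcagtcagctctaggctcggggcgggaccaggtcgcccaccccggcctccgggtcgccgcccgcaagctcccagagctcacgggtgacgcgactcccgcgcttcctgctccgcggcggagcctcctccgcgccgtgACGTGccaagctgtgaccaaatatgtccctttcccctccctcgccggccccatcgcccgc
Ldhb, chr6:142507958-142508207, minus strand: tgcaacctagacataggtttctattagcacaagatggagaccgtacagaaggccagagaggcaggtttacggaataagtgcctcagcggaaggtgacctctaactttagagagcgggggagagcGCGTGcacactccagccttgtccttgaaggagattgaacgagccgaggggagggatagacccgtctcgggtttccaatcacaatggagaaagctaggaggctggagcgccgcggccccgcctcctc
The Car9 window holds a single match, starting 18 bases before the start. The Bnip3 window holds 5, of which 2 are the strands of its CACGTG. The single Ldhb match starts 126 bases before the start. The Pgk1 matches start 150 and 131 bases before the start. The Pfkfb3 window is the farther upstream of 2 listed starts, and the other one also holds matches.

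ACGTG was found for 19 of the 27 genes (70.4%), against 18.5% of 27025 genes in the table. GCGTG was found for 18 (66.7%), against 30.9% of all genes. The members' windows were richer in G and C, with a median of 62.8% against 52.4% over all windows. Counted by window, 59.5% of the members' 37 windows held ACGTG, against 22.4% of 8323 windows whose GC content lay between 56.4% and 67.6%. For GCGTG the same shares were close to each other, at 51.4% and 45.0%. Many of the 33 genes are on the list because they are known HIF targets, so these shares describe the choice of genes. A match is a run of letters and not a bound site.

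The hexokinases of the entry step were not called with the brightest probe set of each. Hk1 and Hk2, the hexokinases that trap glucose in the cell, averaged 12.55 ± 0.08 and 11.65 ± 0.22 in Exercise arrays, and 12.63 ± 0.03 and 11.79 ± 0.16 in non-Exercise arrays (SD, n = 5 each; log2 levels are not comparable between genes). Their changes were -0.08 ± 0.05 and -0.14 ± 0.10 (SE), with limma adjusted p = 0.293 and 0.413. A second probe set of Hk1 gave -0.15 ± 0.05, also short of the threshold (limma adjusted p over probe sets = 0.0780), but with the mean of both probe sets Hk1 was called lower, at -0.11 (limma adjusted p = 0.0416).

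Phosphofructokinase, which commits sugar to glycolysis, has 3 subunit genes, and they did not move together. Pfkm, the muscle type, read 10.06, 10.07, 10.30, 10.32 and 10.06 in the Exercise arrays, against 10.80, 10.64, 10.60, 10.81 and 10.48 in the non-Exercise arrays. Every Exercise array was below every non-Exercise array, with the highest Exercise values in arrays 306 and 309. The change was -0.50 ± 0.08 (SE), 1.42-fold lower (limma adjusted p = 0.00106), and the level lay at percentile 75.4 of all genes.

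Pfkl, the liver type, read 11.92, 12.43, 12.52, 12.34 and 12.38 in the Exercise arrays, against 12.71, 12.44, 12.55, 12.70 and 12.59 in the non-Exercise arrays. The groups overlapped by a single array, since Exercise 306 lay above non-Exercise 327, and Exercise 300 stood far below the rest. The change of -0.28 ± 0.09 missed the threshold (limma adjusted p = 0.0579); without arrays 306, 309 and 310 it was -0.42 (limma adjusted p = 0.0271), and it also passed without Exercise 301 or without Exercise 306. Without Exercise 300 it was -0.18 (limma adjusted p = 0.0735), and with the macrophage or the fibroblast score as a covariate -0.12 or -0.07 (limma adjusted p = 0.761 and 0.844). Pfkp, the platelet type, read 11.84, 12.03, 12.05, 11.95 and 12.15 in the Exercise arrays, against 11.91, 11.69, 11.83, 11.94 and 11.76 in the non-Exercise arrays. All Exercise arrays but 300 were above every non-Exercise array, and array 300 lay inside the non-Exercise range. The change was 0.17 ± 0.06 (limma adjusted p = 0.0805), which passed the threshold without Exercise 300 (limma adjusted p = 0.0333) and with the melanocytic score as a covariate (0.0138). It was 0.10 without arrays 306, 309 and 310 (limma adjusted p = 0.443), and with median-centred arrays 0.08 (0.529).

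The balance between these subunits was compared directly through the log2 ratio of the 2 genes in each array, with an exact two-sided permutation test over all assignments of arrays to groups of 5, whose smallest p is 0.00794, adjusted over 11 pairs of isozymes or paralogs. The ratio of Pfkm to Pfkp changed by -0.68: its values were -1.78, -1.95, -1.75, -1.64 and -2.08 in the Exercise arrays, against -1.12, -1.05, -1.23, -1.13 and -1.28 in the non-Exercise arrays. All Exercise ratios were lower than all non-Exercise ratios (exact p = 0.00794, adjusted p = 0.0291). The ratio of Pfkl to Pfkp changed by -0.45 and read 0.09, 0.41, 0.48, 0.39 and 0.23 in the Exercise arrays, against 0.79, 0.75, 0.71, 0.76 and 0.82 in the non-Exercise arrays. These groups did not overlap either (exact adjusted p = 0.0291). The ratio of Pfkm to Pfkl changed by -0.23 with overlapping groups (exact p = 0.0794, adjusted p = 0.160). Without arrays 306, 309 and 310 the first 2 differences were -0.70 and -0.52.

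**Figure D2:**
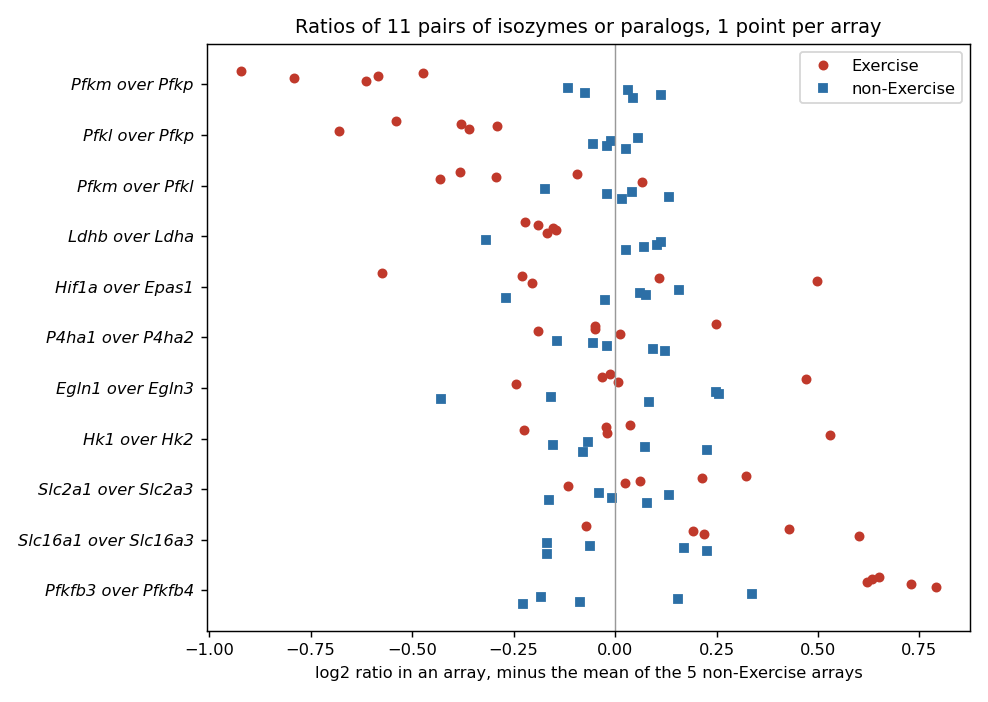
Log2 ratio of the first over the second gene of 11 pairs in each array (x axis, minus the mean of the 5 non-Exercise arrays; y axis, the pair), with circles for Exercise and squares for non-Exercise arrays. The circles and squares separate for Pfkm over Pfkp, Pfkl over Pfkp and Pfkfb3 over Pfkfb4, where the difference is -0.68, -0.45 and 0.68, and overlap for the other 8 pairs.

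Pfkfb3 and Pfkfb4 encode bifunctional enzymes that set the level of fructose 2,6-bisphosphate; Pfkfb3 is weighted towards making it. Pfkfb3 read 10.59, 10.53, 10.57, 10.79 and 10.71 in the Exercise arrays, against 10.07, 10.06, 10.25, 9.91 and 10.16 in the non-Exercise arrays. All Exercise arrays were above all non-Exercise arrays, and the highest were 309 and 310. The change was 0.55 ± 0.07, 1.46-fold higher (limma adjusted p = 0.000359), and 0.47 without arrays 306, 309 and 310 (limma adjusted p = 0.00568). Pfkfb4 read 8.32, 8.33, 8.48, 8.68 and 8.59 in the Exercise arrays, against 8.82, 8.67, 8.62, 8.62 and 8.36 in the non-Exercise arrays, with overlapping groups and a change of -0.14 ± 0.10 (limma adjusted p = 0.421). The ratio of Pfkfb3 to Pfkfb4 lay between 2.09 and 2.26 in the Exercise arrays and between 1.25 and 1.81 in the non-Exercise arrays, a difference of 0.68 (exact p = 0.00794, adjusted p = 0.0291). Pfkfb3 is also expressed by macrophages, and 12 of 15 macrophage and monocyte markers were called higher in the Exercise arrays. With the macrophage score as a covariate the change of Pfkfb3 was 0.34 (limma adjusted p = 0.148). Macrophage content and exercise cannot be told apart in these arrays.

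Aldoa (aldolase A) and Tpi1 (triose phosphate isomerase), which complete the upper part of the pathway, were among the brightest genes of the array. Aldoa averaged 13.77 ± 0.08 in Exercise and 13.84 ± 0.04 in non-Exercise arrays, a change of -0.08 ± 0.04 (limma adjusted p = 0.239). Tpi1 averaged 13.67 ± 0.08 in Exercise and 13.70 ± 0.02 in non-Exercise arrays, a change of -0.03 ± 0.04 (limma adjusted p = 0.638).

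In the lower, energy-yielding steps, Pgk1 and Pgam1 fell. Pgk1 makes ATP from 1,3-bisphosphoglycerate and read 13.28, 13.50, 13.45, 13.42 and 13.35 in the Exercise arrays, against 13.63, 13.54, 13.61, 13.61 and 13.62 in the non-Exercise arrays. All Exercise arrays were lower, and the nearest non-Exercise array was 327. The change was -0.20 ± 0.04, 1.15-fold lower (limma adjusted p = 0.00587). Pgam1, which moves the phosphate group on the way to pyruvate, read 12.93, 13.04, 13.09, 13.04 and 12.90 in the Exercise arrays, against 13.39, 13.31, 13.31, 13.47 and 13.34 in the non-Exercise arrays. The groups were apart, since the highest Exercise array (306) lay below the lowest non-Exercise array (327). The change was -0.36 ± 0.05, 1.29-fold lower (limma adjusted p = 0.000266).

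Each of these genes is named on 3 probe sets, 2 of which gave the same value in every array, and near-identical processed copies of both exist in the mouse genome, so their signals may be shared with copies. All 3 probe sets of Pgam1 fell, by 0.46, 0.36 and 0.46, and all 3 of Pgk1 fell, by 0.20, 0.20 and 0.22 on the log2 scale (limma adjusted p over probe sets between 0.000312 and 0.00742). Pkm, pyruvate kinase of the last step, averaged 13.35 ± 0.09 in Exercise and 13.45 ± 0.08 in non-Exercise arrays, a change of -0.10 ± 0.05 (limma adjusted p = 0.187); its other probe set gave 0.02 ± 0.05. The probe sets that name Gapdh with other genes had changes between -0.06 and 0.08, with a median of -0.01 over 25.

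Lactate dehydrogenase is a tetramer of A and B subunits, the A-rich forms favouring lactate production and the B-rich forms its use. Ldhb read 11.98, 12.08, 12.09, 12.09 and 11.97 in the Exercise arrays, against 12.30, 12.26, 12.35, 12.37 and 11.99 in the non-Exercise arrays. The Exercise arrays were tightly grouped and 4 non-Exercise arrays were above them, while non-Exercise 331 lay inside the Exercise range. The change was -0.21 ± 0.07, 1.16-fold lower (limma adjusted p = 0.0420). The call was lost without arrays 306, 309 and 310 (limma adjusted p = 0.135) and without any one of Exercise 300, 306, 309, 310 and non-Exercise 326, 327, 329, 330 (limma adjusted p up to 0.110). It was also lost with the mean of its probe sets (limma adjusted p = 0.0681), without the intensity trend (0.0879) and with the melanocytic score as a covariate (0.0853), and a second probe set changed by -0.16 ± 0.07 (limma adjusted p over probe sets = 0.148). Ldha averaged 13.58 ± 0.05 in Exercise and 13.61 ± 0.04 in non-Exercise arrays, a change of -0.04 ± 0.04 (limma adjusted p = 0.576). The ratio of Ldhb to Ldha changed by -0.18 (exact p = 0.0476, adjusted p = 0.131).

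**Figure D3:**
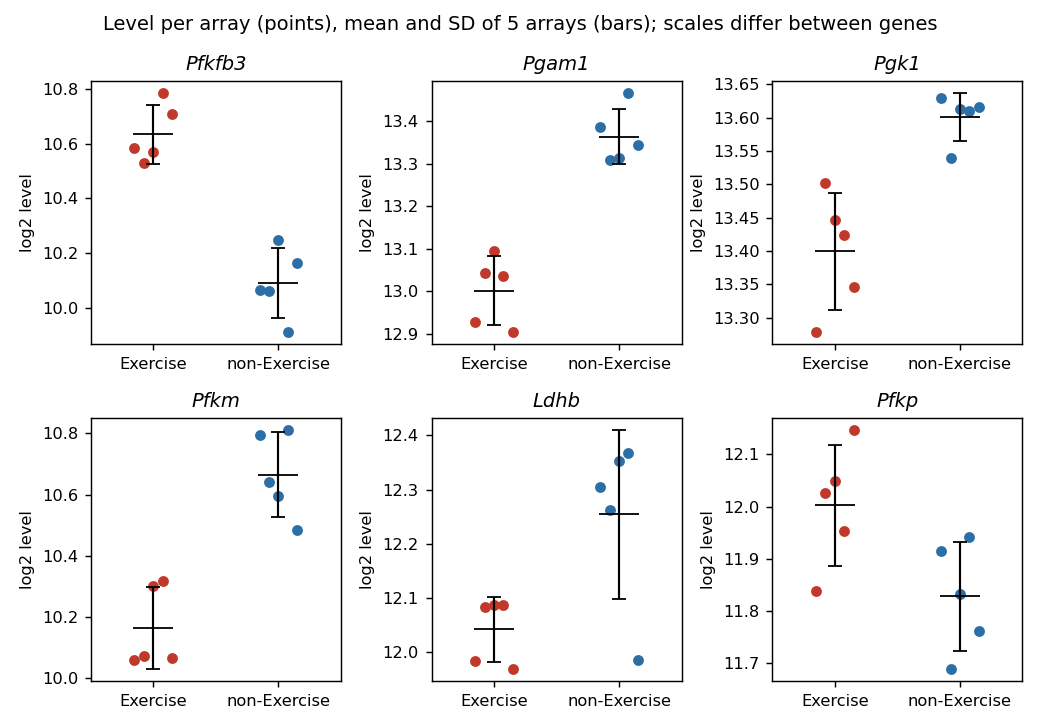
Log2 level (y axis, a separate scale per gene) in each Exercise and non-Exercise array (points) with the mean and SD of 5 arrays (bars), for the 5 called genes and Pfkp. Pfkfb3 is higher and Pgam1, Pgk1 and Pfkm are lower in all 5 Exercise arrays, whereas 1 non-Exercise point of Ldhb, at 11.99, lies among the Exercise points.

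Counted together, the 12 measured glycolytic enzymes and lactate dehydrogenases had 4 lower, 0 higher and 8 not past the test, with 11 negative changes and a median of -0.12. Of all genes 10.6% were called lower and 6.35% higher, and 11377 of 19938 changes were negative. Their median level was at percentile 99.1. Without arrays 306, 309 and 310, which carried the hepatocyte transcripts, 4 of the 30 members were lower (8.06% of all genes): Pfkm (-0.60), Pgam1 (-0.38), Pgk1 (-0.21) and Pfkl. In the same 7 arrays 2 were higher (3.74% of all genes): Pfkfb3 and Egln3. With the macrophage score as a covariate, 0 members were called in either direction, with 0.241% of all genes called higher and 0.572% lower. The changes in that fit were 0.34 for Pfkfb3, -0.46 for Pfkm, -0.25 for Pgam1, -0.11 for Pgk1 and -0.14 for Ldhb (limma adjusted p = 0.148, 0.119, 0.107, 0.513 and 0.623). The macrophage scores of the 2 groups did not overlap, so macrophage content and exercise cannot be told apart in these arrays.

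None of the 4 transporters passed the test, by which 6.35% of all genes were called higher and 10.6% lower. Slc2a1 and Slc2a3 (GLUT1 and GLUT3), which bring glucose in, changed by 0.15 ± 0.09 and 0.04 ± 0.09 (limma adjusted p = 0.328 and 0.835), and their ratio by 0.10 (exact adjusted p = 0.486). Slc16a3 (MCT4), the lactate exporter of glycolytic cells, averaged 12.55 ± 0.17 in Exercise and 12.67 ± 0.12 in non-Exercise arrays, a change of -0.12 ± 0.08 (limma adjusted p = 0.335). Slc16a1 (MCT1), which carries lactate in either direction, read 11.45, 11.39, 11.40, 11.42 and 11.19 in the Exercise arrays, against 11.13, 11.29, 11.29, 11.24 and 11.16 in the non-Exercise arrays. Of the Exercise arrays 4 exceeded every non-Exercise array, and array 310 lay inside the non-Exercise range. Its change of 0.15 ± 0.06 had limma adjusted p = 0.104, and 0.0226 without Exercise 310. The ratio of Slc16a1 to Slc16a3 changed by 0.27 (exact p = 0.0873, adjusted p = 0.160).

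Of 12 HIF pathway members, counting both alpha subunits, both prolyl hydroxylases and 8 other targets, 0 passed the test. Over all genes 6.35% were called higher and 10.6% lower. These 12 had 5 positive and 7 negative changes and a median of -0.01. Glycolytic enzymes, PFKFB regulators and transporters were counted apart, among them the called Pfkfb3 and Pgk1. HIF also binds near many genes of glycolysis, so the 0 holds for this grouping only. Hif1a, the oxygen-regulated subunit present in most cells, averaged 12.37 ± 0.10 in Exercise and 12.52 ± 0.10 in non-Exercise arrays, a change of -0.15 ± 0.06 (limma adjusted p = 0.0999). Epas1 (HIF-2 alpha), enriched in endothelial and some other cells, changed by -0.07 ± 0.14 (limma adjusted p = 0.824) and ranged from 9.61 to 10.49 in Exercise arrays and from 9.93 to 10.37 in non-Exercise arrays. HIF alpha protein is controlled mainly by its breakdown, which transcript levels do not show. The prolyl hydroxylases Egln1 (PHD2) and Egln3 (PHD3), which oxygen keeps active and which HIF itself induces, changed by 0.17 ± 0.11 and 0.13 ± 0.10 (limma adjusted p = 0.356 and 0.443).

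Egln3 read 10.08, 10.03, 9.51, 9.84 and 10.05 in the Exercise arrays, against 9.76, 9.79, 9.80, 9.73 and 9.79 in the non-Exercise arrays. Of the Exercise arrays 4 were above all non-Exercise arrays and array 306 was below all of them. Without arrays 306, 309 and 310 the change was 0.28 (limma adjusted p = 0.0270), and without array 306 alone limma adjusted p = 0.0366.

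Car9, carbonic anhydrase IX, which acidifies the surroundings of hypoxic tumour cells and is widely used as a hypoxia marker, varied more within each group than the group means differed. It read 10.999, 12.08, 11.95, 11.60 and 12.05 in the Exercise arrays, against 11.93, 11.29, 11.82, 11.82 and 12.10 in the non-Exercise arrays. Exercise 300 and non-Exercise 327 were the low arrays of their groups, and the remaining 8 overlapped. The change was -0.06 ± 0.19 (limma adjusted p = 0.901), with a 95% interval of -0.46 to 0.34, so these arrays leave room for a shift of that size in either direction.

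Bnip3, a mitophagy receptor induced by HIF, had the same lowest array in each group as Car9, reading 11.89, 12.35, 12.52, 12.22 and 12.39 in the Exercise arrays, against 12.46, 11.99, 12.30, 12.46 and 12.48 in the non-Exercise arrays. Its change was -0.06 ± 0.11 (limma adjusted p = 0.790). A second, dimmer probe set of Bnip3 gave -0.04 ± 0.11 (limma adjusted p over probe sets = 0.881) and was not compared with Car9. Adm (adrenomedullin, a vasodilator peptide) read 10.39, 11.10, 10.74, 10.54 and 11.03 in the Exercise arrays, against 10.79, 10.55, 10.79, 10.81 and 10.76 in the non-Exercise arrays. Both genes had their lowest Exercise value in array 300 and their lowest non-Exercise value in array 327. The change of Adm was 0.02 ± 0.12 (limma adjusted p = 0.947). Pdk1, the kinase that holds back pyruvate dehydrogenase, changed by -0.16 ± 0.10 (limma adjusted p = 0.334).

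The collagen prolyl hydroxylase subunits P4ha1 and P4ha2 changed by -0.01 ± 0.10 and -0.00 ± 0.11 (limma adjusted p = 0.979 and 0.993), although fibroblast markers were higher in the Exercise arrays. Ankrd37, a small ankyrin-repeat protein and HIF target, was dim, at percentile 41.4, and changed by 0.06 ± 0.09 (limma adjusted p = 0.771). Ndrg1, a stress-induced gene of the N-myc downstream regulated family, came nearest to the threshold in the positive direction among these 8. It read 11.30, 11.67, 11.67, 11.48 and 11.49 in the Exercise arrays, against 11.16, 10.84, 11.03, 11.19 and 11.62 in the non-Exercise arrays. Non-Exercise 331 lay inside the Exercise range and the other non-Exercise arrays lay below it. The change was 0.35 ± 0.12 (limma adjusted p = 0.0516), and the call was made without Exercise 300 or without non-Exercise 331 (limma adjusted p as low as 0.00395).

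The arrays that were low for Car9 were low for most of these genes. Exercise 300 was the lowest of its group for 20 of 30 members (66.7%), against 16.2% of all genes. Non-Exercise 327 was the lowest of its group for 18 of 30 (60%), against 23.9% of all genes. Within the 12 HIF targets and hydroxylases, with Slc2a1 and Hk2 among them, each of these arrays was lowest for 9 (75%). Car9, by which these arrays were singled out, is in both counts. Exercise 306 was highest of its group for 13 members (43.3%), against 20.5% of all genes. Non-Exercise 331 was highest for 12 (40%), against 25.6% of all genes. The hepatocyte score of Exercise 300 was low, at -0.66, and that of non-Exercise 327 was -0.61. Their macrophage scores were 0.50 and -0.24, the latter the highest of the non-Exercise group. Their fibroblast scores were 0.68 and -0.05, the latter again the highest of its group. Exercise 300 had the lowest melanocytic score of all arrays, at -0.13, while that of non-Exercise 327 was 0.02, inside the range of its group. The part of cell makeup in this order was not tested.

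Across all 10 arrays the level of Car9 was compared with that of each of the other 29 members, over 100000 resamples with adjustment over the 29. Pearson's r had a median of 0.51 over the members, against -0.03 over all other genes, and exceeded 0.7 for 8 of 29 (27.6%), against 0.537% of all other genes. By Pearson's r 4 passed a permutation test: Bnip3 (r = 0.93, adjusted p = 0.0180), Hk2 (r = 0.87, adjusted p = 0.0183), Slc16a3 (r = 0.86, adjusted p = 0.0183) and Adm (r = 0.85, adjusted p = 0.0180). By Spearman's rho those genes had 0.76, 0.70, 0.76 and 0.66 (permutation adjusted p = 0.110, 0.126, 0.110 and 0.140), and the only gene past the test was Egln1 (rho = 0.90, permutation adjusted p = 0.0235; r = 0.63, permutation adjusted p = 0.133).

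Without Exercise 300 and non-Exercise 327, the arrays farthest from the median of Car9, r was 0.60 for Bnip3, 0.32 for Hk2, 0.71 for Slc16a3, 0.73 for Adm and 0.68 for Egln1, and -0.24 for Ldha, for which it had been 0.63. It went from 0.71 to 0.12 for Pfkl, from 0.72 to 0.33 for Slc2a1 and from 0.77 to 0.38 for Pdk1. The relations of Hk2, Ldha, Pfkl, Slc2a1 and Pdk1 with Car9 thus rested largely on those arrays. Of the members with r over 0.7 across all 10 arrays, only Slc16a3, Adm and P4ha2 (0.73) stayed above 0.7 without them. Each group alone has too few arrays for a correlation; on values centred within groups r was 0.93 for Bnip3, 0.91 for Hk2, 0.92 for Slc16a3 and 0.86 for Adm. Genes of 1 array share its RNA, its quality and its normalization, and Car9 was chosen as the anchor with its values known.

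Of the called genes none passed the test with Car9: r was -0.06 for Pfkfb3, 0.08 for Pfkm, 0.20 for Pgam1, 0.45 for Pgk1 and -0.01 for Ldhb (permutation adjusted p between 0.284 and 0.980). On values centred within groups r was 0.06 for Pfkfb3, 0.00 for Pfkm, 0.35 for Pgam1 and -0.10 for Ldhb, but 0.75 for Pgk1, which, like Car9, was lowest in Exercise 300 and non-Exercise 327. Without those arrays r of Pgk1 with Car9, not centred, was 0.03.

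**Figure D4:**
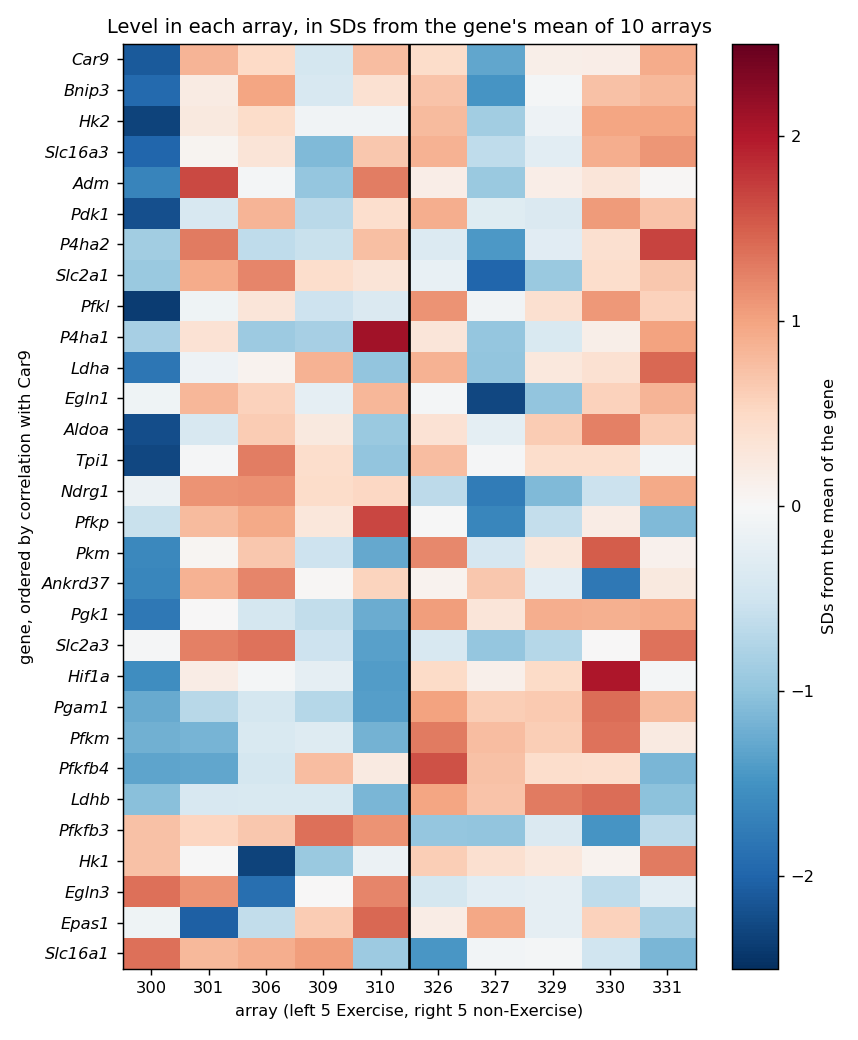
Level of Car9 and the other 29 measured genes (y axis, ordered by r with Car9 from high to low) in the 5 Exercise and 5 non-Exercise arrays (x axis), coloured by SDs from each gene's mean over 10 arrays. Exercise 300 and non-Exercise 327 are blue for most genes of the upper rows, while Pfkfb3 and Pfkm, with r of -0.06 and 0.08, are coloured by group.

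Related genes outside the 33 were read from 8 further lists. Beside the counts of each list stand the shares over all genes, 6.35% called higher and 10.6% lower. Without arrays 306, 309 and 310 those shares were 3.74% and 8.06%. Of 14 measured other isozymes of glycolysis, 2 were higher and 4 lower, with a median change of -0.04. Tigar, a phosphatase that opposes Pfkfb3 by removing fructose 2,6-bisphosphate, read 9.95, 10.24, 10.23, 10.05 and 9.83 in the Exercise arrays, against 10.51, 10.61, 10.63, 10.78 and 10.60 in the non-Exercise arrays. All Exercise arrays were lower, a change of -0.57 ± 0.08 (limma adjusted p = 0.000598). Aldoc (aldolase C) changed by -0.72 ± 0.13 (limma adjusted p = 0.00248). Hk3, the hexokinase of myeloid cells, changed by 0.82 ± 0.16 (limma adjusted p = 0.00391), and by 0.46 without arrays 306, 309 and 310 (limma adjusted p = 0.0704). Hkdc1, a hexokinase-like gene, and Eno3, muscle enolase, changed by -0.37 ± 0.10 and -0.47 ± 0.12 (limma adjusted p = 0.0159 and 0.0162); Hkdc1 missed the threshold without arrays 306, 309 and 310 (limma adjusted p = 0.0505), as did Eno2 (limma adjusted p = 0.0818). The remaining called isozyme, Eno2, enolase of neural cells, changed by 0.40 ± 0.11 and lost its call without non-Exercise 327 or 330 (limma adjusted p up to 0.0623). Without arrays 306, 309 and 310 the list had 0 higher and 3 lower.

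Of 12 measured further carriers 0 were higher and 2 lower, with a median of -0.10. Slc16a7 (MCT2), a high-affinity lactate and pyruvate carrier, changed by -0.36 ± 0.08 (limma adjusted p = 0.00985), and by -0.22 without arrays 306, 309 and 310 (limma adjusted p = 0.0896). Slc2a8 (GLUT8), an intracellular hexose carrier, changed by -0.49 ± 0.12 (limma adjusted p = 0.0124). Of 10 genes of the pyruvate dehydrogenase complex and its regulators 1 was lower: Pdp2, a phosphatase that activates the complex, changed by -0.33 ± 0.10 and kept its call in 3 of 10 fits that left out an array (lost without any one of 300, 301, 309, 326, 327, 329 and 330, limma adjusted p up to 0.0816). Of 8 gluconeogenic genes 2 were lower, G6pc3, a broadly expressed glucose-6-phosphatase (-0.29 ± 0.06, limma adjusted p = 0.00279) and Pck2, the mitochondrial form of phosphoenolpyruvate carboxykinase (-0.52 ± 0.13, limma adjusted p = 0.0140; 0.0694 without arrays 306, 309 and 310).

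Of 11 glycogen genes 1 was higher and 1 lower. Pygb, the brain-type glycogen phosphorylase that releases glucose units from glycogen, read 11.37, 11.30, 11.41, 11.37 and 11.30 in the Exercise arrays, against 11.89, 11.81, 11.78, 11.91 and 11.79 in the non-Exercise arrays. The spread within each group was small beside the gap, and the change was -0.48 ± 0.05 (limma adjusted p = 5.78e-05). With the macrophage score as a covariate Pygb changed by -0.45 (limma adjusted p = 0.0300). Gys2, the liver glycogen synthase, changed by 0.43 ± 0.14 at a level near the bottom of the array (percentile 3.08), was highest in Exercise 306 and 309, and kept its call in 1 of 10 fits that left out an array, the one without Exercise 301 (limma adjusted p up to 0.107 in the others).

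The pentose phosphate pathway, which branches from glucose 6-phosphate and makes NADPH and ribose, had 2 of 6 measured genes higher and 0 lower. Pgls, its lactonase, read 10.93, 10.89, 11.12, 10.97 and 10.80 in the Exercise arrays, against 10.49, 10.34, 10.38, 10.55 and 10.60 in the non-Exercise arrays. Tkt (transketolase), which returns pentose carbon to glycolysis, read 11.13, 11.19, 11.52, 11.11 and 11.27 in the Exercise arrays, against 10.93, 10.92, 10.84, 10.87 and 10.82 in the non-Exercise arrays. For both genes every Exercise array was above every non-Exercise array. The changes were 0.47 ± 0.07 and 0.37 ± 0.07 (limma adjusted p = 0.000704 and 0.00364), and 0.44 and 0.29 without arrays 306, 309 and 310 (limma adjusted p = 0.00489 and 0.0123). With the macrophage score as a covariate Pgls changed by 0.58 and stayed past the threshold (limma adjusted p = 0.0358). In that fit Tkt changed by 0.44 and missed it (limma adjusted p = 0.0910).

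Of 14 HIF partners and oxygen-sensing genes 2 were higher and 2 lower, with a median of -0.05. Crebbp, a coactivator that HIF recruits, changed by 0.30 ± 0.06 (limma adjusted p = 0.00500), and Elob, a subunit of the VHL ubiquitin ligase, by 0.14 ± 0.04 (limma adjusted p = 0.0332). Cited2, which competes with HIF for that coactivator, changed by -0.30 ± 0.08 (limma adjusted p = 0.0229), and Cul2, the scaffold of the VHL ligase, by -0.26 ± 0.08 (limma adjusted p = 0.0306). Fits that left out 1 array kept the call of Crebbp in 10 of 10, of Cited2 in 6, and of Elob and Cul2 in 4 each. Cited2 lost it without 300, 326, 327 or 330 (limma adjusted p up to 0.0649), Elob without 301, 306, 309, 326, 327 or 329 (up to 0.0902), and Cul2 without 306, 309, 326, 327, 329 or 330 (up to 0.0836). Without arrays 306, 309 and 310 Elob and Cul2 also missed the threshold (limma adjusted p = 0.125 and 0.256).

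Of 34 measured further HIF targets 6 were higher and 3 lower, with a median of 0.02. Ddit4 (REDD1), a stress-induced brake on mTORC1, read 10.18, 10.52, 10.29, 10.29 and 10.23 in the Exercise arrays, against 11.37, 11.19, 11.39, 11.51 and 11.51 in the non-Exercise arrays. It was 2.13-fold lower, a change of -1.09 ± 0.08 (limma adjusted p = 6.09e-06), while Car9 and Bnip3 were within their spread. Vegfa, the main angiogenic target of HIF, averaged 11.80 ± 0.20 in Exercise and 11.64 ± 0.11 in non-Exercise arrays, a change of 0.15 ± 0.09 (limma adjusted p = 0.264). Tfrc, the transferrin receptor, changed by -0.37 ± 0.07 (limma adjusted p = 0.00407) and Car12, another carbonic anhydrase, by -0.41 ± 0.11 (limma adjusted p = 0.0171). Car12 was at percentile 16.4 and missed the threshold without arrays 306, 309 and 310 (limma adjusted p = 0.307).

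Among the 6 higher targets were Tmem45a, a membrane protein (0.87 ± 0.21, limma adjusted p = 0.0104), and Pgf, placental growth factor of the VEGF family (0.29 ± 0.07, limma adjusted p = 0.0127). Hmox1 (haem oxygenase), Angptl4 (a lipase inhibitor), Nos2 (inducible nitric oxide synthase) and Lox (a collagen cross-linking enzyme) changed by 0.50, 0.86, 0.36 and 0.95 (limma adjusted p between 0.0191 and 0.0347). Their calls were lost without single arrays (limma adjusted p up to 0.0942): Hmox1 without 326, Angptl4 without 326 or 330, Nos2 without 309 or 329, and Lox without 300, 301, 309, 310, 326, 329 or 330. Nos2 also missed the threshold without arrays 306, 309 and 310 (limma adjusted p = 0.169). These last 4 are outside the rule for named genes. Macrophage and fibroblast markers were higher in the same arrays, and with the macrophage score as a covariate the changes of Tmem45a, Angptl4 and Lox were 0.25, 0.20 and 0.45, and those of Pgf, Hmox1 and Nos2 were 0.43, 0.37 and 0.32, with 0 of these 6 called (limma adjusted p between 0.0793 and 0.820). In that fit Ddit4 changed by -0.89 and stayed past the threshold (limma adjusted p = 0.00364). Without arrays 306, 309 and 310, further HIF targets had 6 higher and 4 lower.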

How the data were processed

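RNA of 10 melanoma tumours was hybridised to Affymetrix whole-transcript arrays, 1 array per sample, after labelling with biotin per the labels' protocols. The authors deposited 1 value per probe set, taken here as log2 because the values lie between 4.66 and 14.55; per the submitters' processing notes they were summarised with PLIER, whose version, like the log base, any added constant and any step between arrays, the sources used here do not give. Deposited array medians ran from 8.64 to 8.77. They differed by 0.126, over the limit of 0.1 set for this step, so limma 3.58.1 (R 4.3.3) was used for quantile normalization. Of 35556 probe sets 21789 named 1 gene, 1621 several, and 12146 were unlisted; 21698 matched a gene of GRCm38.p6 by Entrez identifier. The probe set with the highest mean stood for each of 19938 genes, and no filter on dim genes was applied. No pair of arrays shared more than 1 exact value; correlations were 0.976 to 0.990 within Exercise, 0.987 to 0.996 within non-Exercise and 0.960 to 0.991 between groups. The number of arrays limits the precision.

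Genes were tested two-sided by limma's lmFit and trended eBayes, adjusted over all genes at 0.05; changes are Exercise minus non-Exercise. Ratios of pairs used all assignments of arrays to groups, and correlations 100000 resamples. Marker scores are the mean deviation of a list's genes from their own means over 10 arrays. The members and lists were chosen with earlier results of these data known. Every member was accounted for. Per-array values were given for called members and for some of the pairs, and the ratios of all pairs are shown as points in the figure of pairs. Up to 5 called genes of each other list with the smallest p were named, and Ddit4 and Vegfa always. Eno2, Hmox1, Angptl4, Nos2 and Lox were named beyond that rule. Per-array values of other genes were added after seeing them. Of the further lists Pgm1 and Gbe1 stood in both the glycogen and the HIF target list. Alternatives were the deposited table, median centring, the mean of probe sets, a filter on dim genes, no trend, robust variances, array weights, another threshold, covariates, leaving out arrays 306, 309 and 310, and leaving out each array. The fibroblast covariate and leaving out Exercise 300 with non-Exercise 327 were added after seeing the data. No scan date or slide was given, so no batch was tested. The code was tested on simulated data. Figures used Python 3.11.15 and matplotlib 3.10.9.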

Additional observations from a re-analysis of the deposited data

Results flagged for a closer look

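Within the groups of 5 arrays, 6 of 60 group and gene combinations had 1 array far from the other 4. Far means a gap to the nearest array of over 0.71 of the group's range. About 1 in 20, or 3, would pass that limit by chance if the combinations were independent. They share the same 10 arrays and are not independent, so 6 beside 3 is no test. Hk2 was 11.27 in Exercise 300, against 11.70 to 11.81 in the other Exercise arrays. Slc16a1 was 11.19 in Exercise 310, against 11.39 to 11.45 in the other Exercise arrays. Pgk1 was 13.54 in non-Exercise 327, against 13.61 to 13.63 in the other non-Exercise arrays. Adm was 10.55 in non-Exercise 327, against 10.76 to 10.81. Ldhb was 11.99 in non-Exercise 331, against 12.26 to 12.37. Hif1a was 12.69 in non-Exercise 330, against 12.44 to 12.51. Leaving out Exercise 310 brought Slc16a1 past the threshold (limma adjusted p = 0.0226), and leaving out non-Exercise 331 lowered the adjusted p of Ldhb to 0.00191.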

How the results depend on the processing

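The count of members higher in Exercise was 1, and became 2 with only genes above percentile 25, 2 without arrays 306, 309 and 310, 2 with the melanocytic score as covariate, 3 with array weights, 3 at an adjusted p under 0.10, 4 by the unadjusted exact permutation test and 0 with the macrophage score as covariate. Leaving out each array gave 1 to 3 (3 without Exercise 300; 2 without Exercise 306, Exercise 310 or non-Exercise 331). The count lower was 4, and became 7 with median-centred arrays, 0 with the macrophage covariate and 1 with the fibroblast covariate, which was added after seeing the data; it was 3 without the trend or with the melanocytic covariate, 5 with the deposited table, with the filter on dim genes or with array weights, and 6 at an adjusted p under 0.10 or by the unadjusted exact permutation test. In the other settings it was 4, and leaving out each array gave 3 to 5. Shares over all genes are given above for the main fit, the fit without arrays 306, 309 and 310 and the macrophage fit. For the other settings they are not given, so those counts cannot be set against a background. The 3 gained under median centring were Pfkl, Hif1a and Hk1; that scaling moved the median of all genes to -0.05, from -0.02. With the fibroblast covariate Pfkfb3 (0.41) and Pgam1 (-0.24) stayed past the threshold (limma adjusted p = 0.0442 and 0.0301), and Pfkm (-0.35), Pgk1 (-0.12) and Ldhb (-0.10) did not (limma adjusted p = 0.111, 0.340 and 0.671). Of 720 comparisons of single members across settings, 629 kept direction and side of the threshold, 30 gained it, 21 lost it, 40 uncalled values changed sign and 0 called values did. Pfkfb3, Pfkm, Pgk1 and Pgam1 passed in all 10 fits without 1 array (limma adjusted p up to 0.00184, 0.00462, 0.0203 and 0.00146); Ldhb passed in 2. The cause of these shifts was not tested. Fits that leave out arrays have fewer samples, and the macrophage scores of the groups did not overlap. No paired analysis was possible because the groups share no replicate number.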
